A study of Sus scrofa with 12 samples.

Results

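The genes described here encode collagens and the proteins that fold, trim and modify them, measured in cultured pig aortic valve interstitial cells. Members were the 39 of 22861 genes in the deposited gene table whose name was that of a collagen chain (30 genes) or of a named collagen-processing protein (9 genes). The 12 libraries formed 4 groups of 3 biological replicates of cells (Sus scrofa) grown on glass in DMEM medium, where glass is the labelled stimulus of calcification. The groups were Stage 1 (day 5), Stage 2 (day 8), Stage 3+KPT and Stage 3+DMSO, of which the last pair received KPT or its solvent control DMSO at Stage 3. The culture protocol runs to 12 days. The labels do not state the day of the Stage 3 libraries, the dose, duration and full name of KPT, and whether replicates came from separate animals, so p-values measure only the spread between these samples, which may be technical.

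Collagens are matrix proteins built from chains that wind into a triple helix. Fibrillar collagens (types I, III, V and XI) form the cables that carry load in the valve leaflet, network collagens (types IV and VIII) form sheets, beaded collagen VI forms microfilaments, and FACIT collagens such as types XII and XIV sit on the surface of fibrils. In the endoplasmic reticulum the prolyl and lysyl hydroxylases modify the chains and SERPINH1 chaperones the helix, and outside the cell BMP1 and its enhancers remove the propeptides so that fibrils can form. Valve interstitial cells are the fibroblast-like cells that make this matrix in the leaflet.

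Of the 39 members, 31 reached 1 RPKM (reads scaled by exon length and by library size) in at least 3 libraries and were tested among 13046 genes, namely 22 of the 30 collagens and 9 of the 9 processing genes. The tested collagens were 6 of 7 fibrillar, 6 of 8 network, 3 of 4 beaded and 4 of 6 FACIT genes, with COL18A1, COL26A1 and COL7A1. COL4A4 had 142 reads over the 12 libraries and no library above 0.262 RPKM. COL13A1, COL9A1, COL23A1 and COL10A1 had 21, 19, 16 and 9 reads, COL11A2 and COL28A1 had 1 each, and COL19A1 was listed at 0 in every library. COL1A1, COL2A1, COL6A1, PLOD3 and LEPRE1 were not found by name and were not analysed here, so the COL1A2 chain stands alone for type I collagen.

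The reads recovered from the RPKM values summed to between 23287593 and 43293744 over genes per library. The labelled cell type was checked by its markers: 8 of 8 valve interstitial genes, such as VIM and PDGFRA, were expressed, with a summed level of 9232 to 14895 RPKM per library. Of 10 listed endothelial genes, 6 were expressed, led by ERG (25.7 to 67.5 RPKM over the libraries) and PECAM1 (4.92 to 12.0 RPKM), while VWF, KDR and TEK stayed under 1 RPKM. Of 7 leukocyte genes, CD14 (5.38 to 12.9 RPKM) and CD68 (1.10 to 5.58 RPKM) were expressed and the other 5, PTPRC among them, stayed under 1 RPKM. The first Stage 3+DMSO library stood apart from the others of its group (chi-square per degree of freedom 41.2 and 47.9 across genes, against 13.2 between the other two). The first Stage 2 library did so to a lesser degree (16.7 and 26.8, against 7.37 between the other two). For some results that rest on either, though not for all, the value without it is also given. These are bulk samples, in which fewer cells of a type and less RNA per cell cannot be told apart.

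Collagen RNA was among the most abundant in these cells, with COL1A2 at rank 20 to 21 of all genes by RPKM in Stage 3+KPT libraries and at rank 5 to 14 in the others. All 30 collagens together took 3.80% to 4.09% of recovered reads in Stage 3+KPT libraries, against 6.20% to 7.20% in Stage 3+DMSO libraries, and 7.22% to 7.64% at Stage 2, against 5.14% to 5.67% at Stage 1. The fibrillar genes made up most of it, with a summed level of 10916 ± 336 RPKM in Stage 3+KPT libraries and 18917 ± 2077 RPKM in Stage 3+DMSO libraries (SD, n = 3). In the groups without KPT, COL1A2 was the highest of the 30 collagens, above COL3A1, COL5A2, COL6A2 and COL5A1. Its range overlapped no other of the 30 in any of these groups. In Stage 3+KPT libraries the ranges of COL3A1 and COL1A2 overlapped at the top of the order. COL5A1 was the ninth of the 30 there, its range overlapping that of COL4A1. Collagens that the gene table does not list by name, such as COL1A1 and COL15A1, are outside this order.

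**Figure D1:**
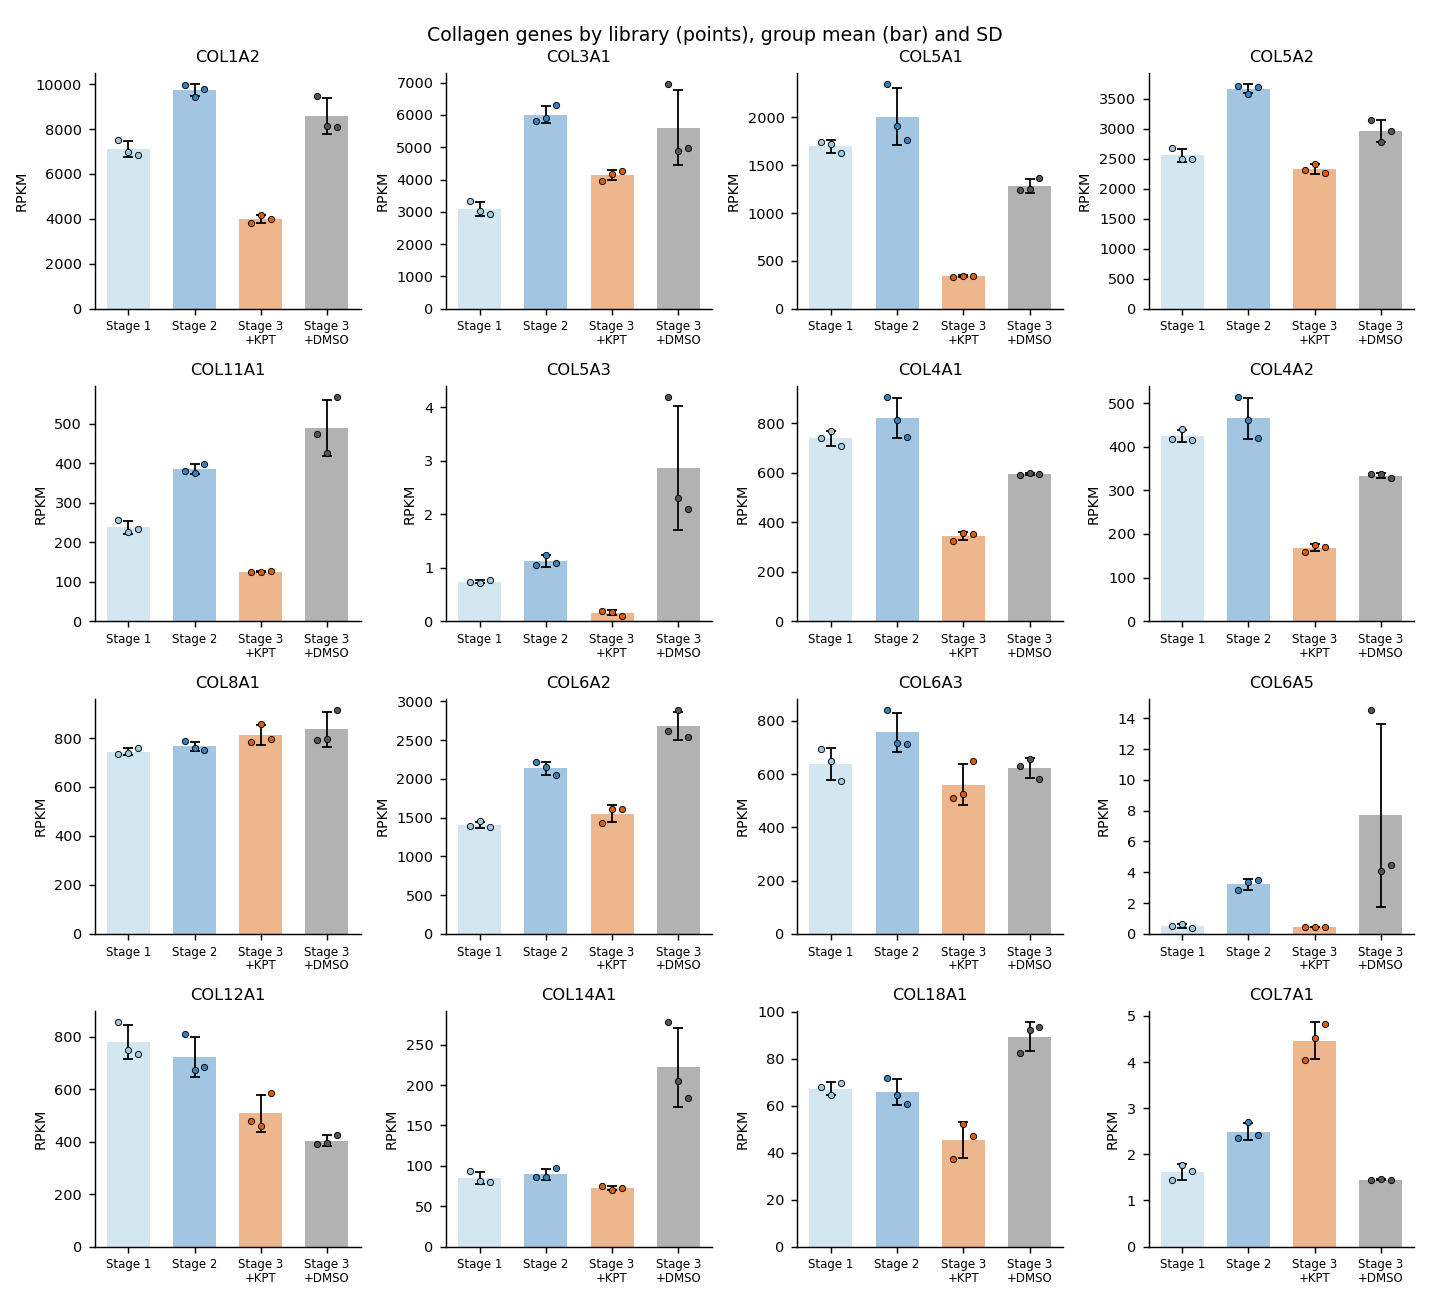
Levels of 16 collagen genes in RPKM on linear axes that start at 0; points are libraries, bars are means of 3 libraries and whiskers are SD. COL1A2, COL5A1 and COL11A1 lie lower in each Stage 3+KPT library than in any library of the other groups, while the COL8A1 ranges of Stage 3+KPT and Stage 3+DMSO overlap and COL7A1 is highest in the Stage 3+KPT libraries.

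Stage 2 was set against Stage 1 to ask how transcripts differ between successive calcification stages. Collagens and their processing genes were higher at Stage 2 in 17 of 31 tested members, where 16.3% of all tested genes were higher, and the members' median log2 fold change was 0.36, against -0.05 over all tested genes. No member (0) passed as lower, where 24.4% of all tested genes did, although COL9A2 was lower at an unadjusted p under 0.05 (1 gene) and by limma-voom on the recovered reads. Without the first Stage 2 library COL9A2 passed as lower (log2 fold change -0.67, adjusted p = 0.0206). The 17 comprised 4 of 6 fibrillar genes, 2 of 6 network genes, 2 of 3 beaded genes, 1 of 4 FACIT genes, COL7A1 and 7 of 9 processing genes. The FACIT gene is the row named COL21A1, whose identity is uncertain and which lies beside COL4A5, 1 of the network genes counted. The groups did not overlap for 21 of 31 members, where that held for 52.5% of all tested genes. Markers moved in the same comparison. The 8 valve interstitial genes summed to 12119 to 13149 RPKM at Stage 2, against 10508 to 10994 RPKM at Stage 1. Each of the 8 was higher at Stage 2 without overlap, such as THY1 (763 to 774 RPKM, against 414 to 430 RPKM). Of the 4 listed contractile genes, which mark activated interstitial cells as well as smooth muscle, ACTA2 was lower, at 11716 to 14092 RPKM at Stage 2, against 17824 to 18957 RPKM at Stage 1. DES was higher (102 to 152 RPKM at Stage 2, against 42.2 to 49.5 RPKM at Stage 1), and TAGLN and CNN1 overlapped. SOX9, a chondrocyte marker, had 25.8 to 26.8 RPKM at Stage 2, against 14.7 to 14.8 RPKM at Stage 1, and RUNX2, an osteoblast marker, had 14.2 to 14.6 RPKM, against 19.8 to 21.0 RPKM. The part of these markers in the result was not tested.

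Stage 3+DMSO was then set against Stage 2. Here 15 of 31 members were lower, where 11.1% of all tested genes were lower, and 7 were higher, where 33% were. The members' median log2 fold change was -0.19, against 0.15 over all tested genes. After rescaling each library by its median ratio, which brought that median over all genes to 0.01, 18 members were lower and 2 (COL14A1 and COL5A3) were higher, where 19.5% of all tested genes were lower and 20.1% higher after the same rescaling. The lower members included 4 of 6 network genes and 5 of 9 processing genes. Without the first Stage 2 library the calls of COL6A5 (adjusted p = 0.115), P4HA2 (adjusted p = 0.0713) and COL6A3 (adjusted p = 0.155) were lost. Markers moved here too and their part was not tested. The 8 valve interstitial genes summed to 12966 to 14895 RPKM at Stage 3+DMSO, against 12119 to 13149 RPKM at Stage 2, with overlap. Of these, PDGFRA, DCN and LUM were lower and PDGFRB and POSTN higher without overlap. The contractile genes summed to 14268 to 16115 RPKM at Stage 3+DMSO, against 21481 to 25526 at Stage 2, and each of the 4 was lower without overlap. SOX9 had 28.8 to 34.1 RPKM at Stage 3+DMSO, against 25.8 to 26.8 RPKM at Stage 2, ACAN had 6.97 to 9.13 RPKM, against 1.80 to 2.31 RPKM, and RUNX2 had 7.57 to 9.70 RPKM, against 14.2 to 14.6 RPKM. Against Stage 1, 16 members were higher at Stage 3+DMSO and 8 lower, where 30.5% and 17.3% of all tested genes were, and after the rescaling 11 were higher and 8 lower, where 22.7% and 24.2% of all tested genes were. The groups did not overlap for 25 of 31 members in that comparison, where that held for 59% of all tested genes. Its largest rises were those of COL6A5 (log2 fold change 2.31, and 1.79 without the first Stage 3+DMSO library), COL14A1 (1.36), COL5A3 (1.11) and COL11A1 (1.03). Among called members, its largest falls were those of COL12A1 (-0.94), PLOD2 (-0.50), COL5A1 (-0.40) and COL4A2 (-0.35). The 3 stage comparisons share groups, so their values are not independent of each other.

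KPT was set against its solvent at Stage 3. Called in either direction were 26 of 31 members, where 60% of all tested genes were. Of the members, 23 were lower with KPT, where 29.5% of all tested genes were lower, and 3 (COL7A1, COL12A1 and PLOD1) were higher, where 30.5% were. The members' median log2 fold change was -0.93, against 0.02 over all tested genes. The fall covered 6 of 6 fibrillar genes (median -1.40), 5 of 6 network genes (median -0.89), 2 of 3 beaded genes and 7 of 9 processing genes (median -0.93). COL8A1, COL6A3, COL9A2, COL21A1 and PLOD2 did not pass. The groups did not overlap for 27 of 31 members, where that held for 65.2% of all tested genes. Markers moved in the same comparison. The cells' own 8 valve interstitial genes summed to 9232 to 9392 RPKM in Stage 3+KPT libraries, against 12966 to 14895 in Stage 3+DMSO libraries. VIM was lower (4378, 4701 and 4738 RPKM with KPT, against 9961, 11573 and 10624 RPKM with DMSO), as was THY1 (354 to 403 RPKM, against 731 to 793 RPKM). PDGFRB was also lower (153 to 179 RPKM, against 199.8 to 235 RPKM). POSTN was higher (2677 to 3095 RPKM, against 929 to 1187 RPKM). So were DCN (439 to 512 RPKM, against 337 to 385 RPKM) and LUM (461 to 527 RPKM, against 348 to 440 RPKM). PDGFRA and S100A4 overlapped. Of the contractile genes, ACTA2 had 1999.8 to 2445 RPKM with KPT, against 7806 to 9892 RPKM with DMSO, CNN1 and DES were also lower without overlap, and TAGLN overlapped (5624 to 6380.0 RPKM, against 5836 to 6156 RPKM). The 10 listed endothelial genes summed to 35.5 to 41.5 RPKM with KPT, against 69.5 to 87.5 RPKM with DMSO, most of it ERG (25.7 to 27.7 RPKM, against 52.9 to 67.5 RPKM), with VWF, KDR and TEK under 1 RPKM in each. RUNX2 had 30.3 to 36.9 RPKM with KPT, against 7.57 to 9.70 RPKM with DMSO, while IBSP, SP7 and DMP1 stayed under 1 RPKM. SOX9 had 61.6 to 64.6 RPKM, against 28.8 to 34.1 RPKM, and ACAN, a cartilage matrix gene, went the other way (0.242 to 0.520 RPKM, against 6.97 to 9.13 RPKM), with MATN1 under 1 RPKM in each. The part of these markers in the result was not tested.

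**Figure D2:**
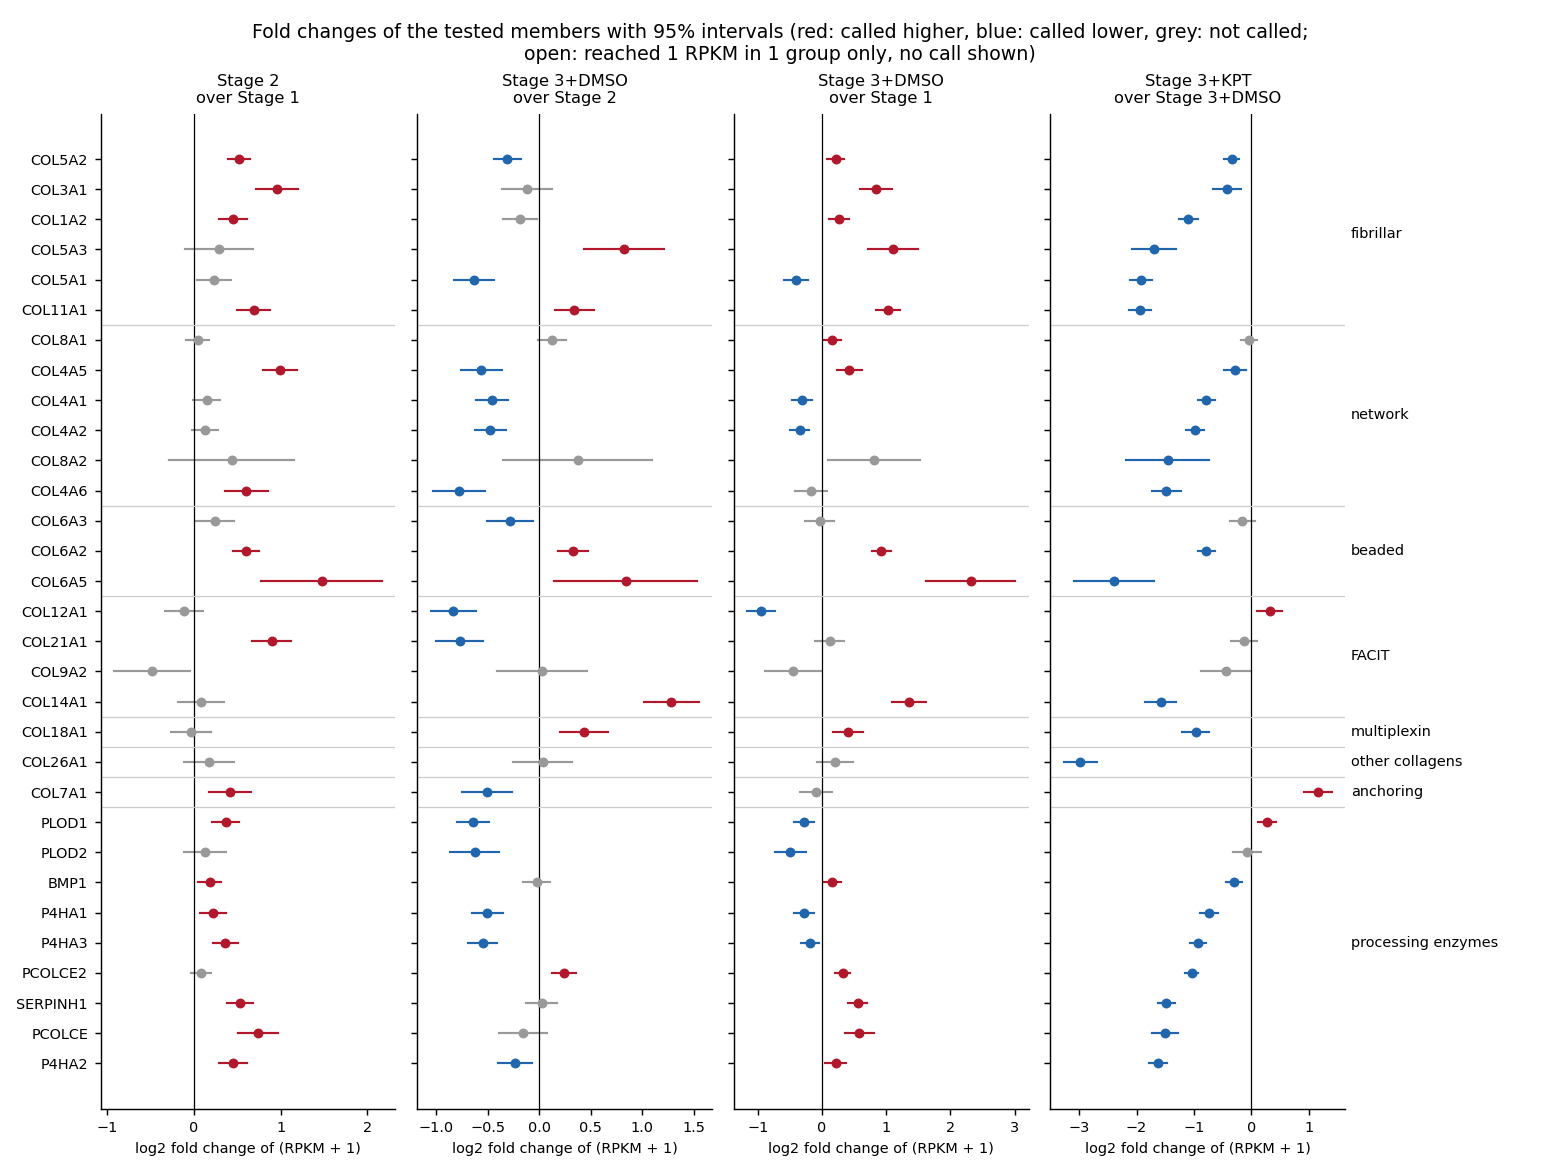
Log2 fold changes of RPKM + 1 for the 31 tested members, by class, in the 4 comparisons; points are limma estimates, lines are 95% intervals, red marks genes called higher, blue lower and grey not called, and each panel has its own horizontal scale. The column of Stage 3+KPT over Stage 3+DMSO has 23 blue points, 3 red points and 5 grey points.

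Among fibrillar genes, COL1A2, a chain of type I collagen, measured 3826, 4168 and 3974 RPKM in Stage 3+KPT libraries, against 9491, 8141 and 8076 RPKM in Stage 3+DMSO libraries (log2 fold change -1.10, SE 0.07, adjusted p = 5.99e-08). Every KPT library lay below every library of the other groups. At Stage 2 it measured 9963, 9443 and 9765 RPKM, against 7529, 6970.2 and 6834 at Stage 1 (log2 fold change 0.45, SE 0.07, adjusted p = 4.68e-04). Its difference between Stage 3+DMSO and Stage 2 did not pass (log2 fold change -0.19, adjusted p = 0.0590) and passed after median-ratio rescaling (-0.35, adjusted p = 0.00372) and without the first Stage 3+DMSO library (-0.26, adjusted p = 0.00563).

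COL3A1, the chain of type III collagen, showed the largest rise of a fibrillar gene at Stage 2. It measured 5812, 5915 and 6311 RPKM at Stage 2, against 3339, 3017 and 2931 RPKM at Stage 1 (log2 fold change 0.96, SE 0.11, adjusted p = 4.45e-05). Stage 3+KPT libraries had 3967, 4175 and 4254 RPKM, against 6946, 4891 and 4977 RPKM in Stage 3+DMSO libraries (log2 fold change -0.42, SE 0.11, adjusted p = 0.00625). The first Stage 3+DMSO library was the high one, and without it the log2 fold change was -0.26 (adjusted p = 0.00669), while quantile normalization ended the call (adjusted p = 0.118). Without that library COL3A1 also passed as lower at Stage 3+DMSO than at Stage 2 (-0.28, adjusted p = 0.00556), where with it the difference did not pass (-0.12, adjusted p = 0.416).

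COL5A1 and COL5A2 encode chains of type V collagen, which joins type I fibrils and limits their width. COL5A1 had 329, 343 and 343 RPKM in Stage 3+KPT libraries, against 1241, 1248 and 1368 RPKM in Stage 3+DMSO libraries (log2 fold change -1.92, SE 0.09, adjusted p = 1.57e-09). It measured 2346, 1909 and 1769.6 RPKM at Stage 2 and 1745, 1726 and 1624 RPKM at Stage 1 (not called, adjusted p = 0.0516), and its level at Stage 3+DMSO was lower than at Stage 2 (log2 fold change -0.63, SE 0.09, adjusted p = 1.13e-04). Its fall with KPT was seen along the whole gene, as 65 of 65 measured exons were lower in every KPT library than in every DMSO library.

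For COL5A2 the levels were 2313, 2417 and 2262 RPKM in Stage 3+KPT libraries, against 3142, 2784 and 2967 RPKM in Stage 3+DMSO libraries (log2 fold change -0.35, SE 0.06, adjusted p = 3.02e-04). Quantile normalization ended that call (adjusted p = 0.183). The gene had 3719.9, 3583 and 3696 RPKM at Stage 2 and 2677, 2487 and 2503 RPKM at Stage 1 (log2 fold change 0.52, SE 0.06, adjusted p = 3.92e-05).

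COL11A1, a chain of type XI collagen and the close relative of COL5A1, was higher at each successive stage without KPT. It measured 256, 226 and 233 RPKM at Stage 1, 380.4, 375 and 399 RPKM at Stage 2 and 475, 427 and 568 RPKM at Stage 3+DMSO, and no group overlapped another. The step between Stage 3+DMSO and Stage 2 (log2 fold change 0.34, SE 0.09, adjusted p = 0.00734) did not pass after median-ratio rescaling (0.17, adjusted p = 0.138). With KPT the libraries had 124, 126 and 127 RPKM, below each Stage 1 library, and the log2 fold change over DMSO was -1.95 (SE 0.09, adjusted p = 1.30e-09).

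COL5A3, a further type V chain, was low, with 0.188, 0.178 and 0.106 RPKM in Stage 3+KPT libraries (49 reads in all), against 4.19, 2.30 and 2.09 RPKM in Stage 3+DMSO libraries (922 reads). Its log2 fold change with KPT was -1.70 and was -1.47 without the first Stage 3+DMSO library. It rose at Stage 3+DMSO over Stage 2 (log2 fold change 0.82, SE 0.18, adjusted p = 0.00269), and without that library by 0.59 (adjusted p = 0.00518).

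In the network class, COL4A1 and COL4A2, the ubiquitous basement membrane chains, are neighbours on chromosome 11 on opposite strands. The deposited models lie 181153 bases apart, with no other gene of the table between them. COL4A1 had 324, 357 and 352 RPKM in Stage 3+KPT libraries, against 589.9, 599 and 594 RPKM in Stage 3+DMSO libraries (log2 fold change -0.79, SE 0.07, adjusted p = 8.30e-07). COL4A2 had 159, 175 and 170.0 RPKM in Stage 3+KPT libraries, against 337, 337 and 327 RPKM in Stage 3+DMSO libraries (log2 fold change -0.98, SE 0.07, adjusted p = 9.15e-08). Neither gene's groups overlapped in that comparison.

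The type IV pair was also lower at Stage 3+DMSO than at Stage 2, with log2 fold changes of -0.46 for COL4A1 (SE 0.07, adjusted p = 2.31e-04) and -0.47 for COL4A2 (SE 0.07, adjusted p = 1.73e-04). At Stage 2 COL4A1 measured 905, 812 and 742 RPKM, against 742, 766 and 707 RPKM at Stage 1. COL4A2 measured 514, 462 and 419.9 RPKM at Stage 2, against 417, 441 and 417 RPKM at Stage 1. These ranges overlapped for both genes, and neither difference passed. The endothelial sum is given because endothelium also makes type IV collagen. It was 65.5 to 69.5 RPKM at Stage 1, 64.5 to 70.7 RPKM at Stage 2 and 69.5 to 87.5 RPKM at Stage 3+DMSO. In Stage 3+KPT libraries it was 35.5 to 41.5 RPKM. Most of it was ERG in each group, and its part in the type IV differences was not tested.

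COL4A5 and COL4A6, minor basement membrane chains encoded on chromosome X, rose at Stage 2. COL4A5 had 47.7, 47.3 and 51.6 RPKM at Stage 2, against 27.2, 22.3 and 23.1 RPKM at Stage 1 (log2 fold change 0.99, SE 0.09, adjusted p = 6.77e-06). It fell at Stage 3+DMSO (log2 fold change -0.56, SE 0.09, adjusted p = 3.30e-04), and its fall with KPT over DMSO was small (log2 fold change -0.29, SE 0.09, adjusted p = 0.0152) and did not pass without the first Stage 3+KPT library (adjusted p = 0.0736). COL4A6 was less abundant, at 10.3, 11.9 and 10.8 RPKM at Stage 2, against 7.64, 7.06 and 5.99 RPKM at Stage 1. Stage 3+KPT libraries had 1.30, 1.48 and 1.73 RPKM of COL4A6, against 6.57, 5.87 and 5.55 RPKM in Stage 3+DMSO libraries (log2 fold change -1.49, SE 0.12, adjusted p = 2.26e-07). The deposited model of COL4A5 spans 1276 bases in 10 exons, so its RPKM holds for that model only.

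COL8A1, the short-chain network collagen of vessel and valve matrix, was an abundant collagen that did not pass with KPT. Its levels were 783, 858 and 796 RPKM in Stage 3+KPT libraries, against 793, 796 and 916 RPKM in Stage 3+DMSO libraries, and the ranges overlapped (log2 fold change -0.04, SE 0.06, adjusted p = 0.630). At Stage 2 it had 786, 759.8 and 752 RPKM, against 735, 737 and 760.3 RPKM at Stage 1 (log2 fold change 0.04, adjusted p = 0.629). At Stage 3+DMSO it was higher than at Stage 1 (0.16, adjusted p = 0.0497), a call kept in 10 of 25 alternative settings. Its partner chain COL8A2 was near the limit of measurement, with 22 reads in Stage 3+KPT libraries and 338 in Stage 3+DMSO libraries. Those levels were 0.169, 0 and 0.325 RPKM with KPT and 0.762, 2.06 and 4.91 RPKM with DMSO, a wide spread within the DMSO group (log2 fold change -1.46, SE 0.33, adjusted p = 0.00219).

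Of the beaded collagens, COL6A2, a core chain of type VI collagen, measured 1430.0, 1609 and 1618 RPKM in Stage 3+KPT libraries, against 2623, 2893 and 2535 RPKM in Stage 3+DMSO libraries (log2 fold change -0.79, SE 0.07, adjusted p = 6.16e-07). It measured 2213, 2155 and 2046 RPKM at Stage 2, against 1394, 1456 and 1378 RPKM at Stage 1 (log2 fold change 0.60, SE 0.07, adjusted p = 3.31e-05). COL6A2 thus stood higher at each successive stage without KPT, but the step of Stage 3+DMSO over Stage 2 (0.33, adjusted p = 0.00202) did not pass after median-ratio rescaling (0.16, adjusted p = 0.108).

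COL6A3, the large chain of the same assembly, passed neither with KPT nor at Stage 2. Its levels were 509, 526 and 648 RPKM in Stage 3+KPT libraries, against 629, 656 and 582 RPKM in Stage 3+DMSO libraries, with overlapping ranges (log2 fold change -0.16, SE 0.10, adjusted p = 0.207). It had 842, 716 and 713 RPKM at Stage 2, against 694, 648 and 574 RPKM at Stage 1 (log2 fold change 0.24, SE 0.10, adjusted p = 0.0752). The difference between Stage 3+DMSO and Stage 2 (-0.28, adjusted p = 0.0428) passed in 13 of 25 alternative settings.

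COL6A5, a minor type VI chain, was the member with the largest rise at Stage 2, where it had 2.83, 3.34 and 3.48 RPKM, against 0.506, 0.650 and 0.402 RPKM at Stage 1 (log2 fold change 1.47, SE 0.32, adjusted p = 0.00294). With KPT it had 0.449, 0.433 and 0.420 RPKM, against 14.6, 4.07 and 4.44 RPKM with DMSO. The first Stage 3+DMSO library was more than the others together: with it the log2 fold change over DMSO was -2.40 (SE 0.32, adjusted p = 3.32e-05), and without it -1.87 (adjusted p = 3.62e-07). Its step between Stage 3+DMSO and Stage 2 (0.84, adjusted p = 0.0488) became 0.32 without that library and did not pass (adjusted p = 0.0844).

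Single exons of COL6A3 differed between groups in their share of the gene. In human COL6A3, some of the exons that encode its amino-terminal von Willebrand factor A domains are known to be alternatively spliced. Among 641 member exons with a mean of at least 100 reads, in members with at least 5 measured exons, 6 differed between groups by at least 0.7 on the log2 scale relative to the median exon of their gene, without overlap, in 1 or more of 3 comparisons (Stage 2 with Stage 1, Stage 3+DMSO with Stage 2, Stage 3+KPT with Stage 3+DMSO). That limit was chosen after the values were seen, so these exons are a description with no test. Exon 3 and exon 4 of the 45 COL6A3 exons, counted from the 5′ end, are neighbours on the minus strand of chromosome 15, at bases 151520963 to 151521583 and 151514436 to 151515038 of the deposited coordinates, whose genome build is not stated.

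Exon 3 of COL6A3, of 621 bases, stood at 18.8, 13.2 and 15.7% of the median COL6A3 exon in Stage 3+KPT libraries, against 10.6, 9.56 and 9.78% in Stage 3+DMSO libraries. At Stage 2 it stood at 4.42, 4.86 and 4.47%, against 7.18, 7.29 and 6.68% at Stage 1. Exon 4, of 603 bases, stood at 48.0, 35.8 and 40.8% in Stage 3+KPT libraries, against 22.4, 20.8 and 21.2% in Stage 3+DMSO libraries. Its shares were 10.1, 10.6 and 10.7% at Stage 2, against 19.7, 16.3 and 18.0% at Stage 1. Both exons thus had their lowest share at Stage 2 and their highest with KPT, and no library of one of these groups overlapped another group. Exon 3 rested on 515 to 2128 reads per library. Between Stage 3+DMSO and Stage 2, 41 of 44 measured COL6A3 exons were lower without overlap and 2 were higher, and those were exon 3 and exon 4.

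The other exons past that limit belonged to 4 genes. A 64-base exon of PLOD2, exon 3 of 18, stood at 60.2, 53.5 and 93.7% of the median PLOD2 exon in Stage 3+KPT libraries, against 37.5, 25.8 and 33.9% in Stage 3+DMSO libraries and 40.1, 67.7 and 58.8% at Stage 2, which the Stage 3+DMSO libraries also did not overlap. The last exon of COL11A1, of 925 bases, stood at 53.1% ± 9.81 (SD, n = 3) with KPT and 29.1% ± 2.66 with DMSO. A 36-base exon of COL14A1 stood at 95.2% ± 5.32 with KPT and 158% ± 7.50 with DMSO, and at 97.2% ± 3.95 at Stage 2. This exon reached the mean of 100 reads through the Stage 3+DMSO libraries alone, which had 251 to 317 reads each. It had 37 to 58 reads per library with KPT, 44 to 68 at Stage 2 and 57 to 97 at Stage 1. A 69-base exon near the end of COL5A1 stood at 18.0% ± 1.11 at Stage 2 and 30.3% ± 1.72 at Stage 1.

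Levels of pairs of collagen chains were also set against each other within each library, as 6 ratios over 4 comparisons. Of the 6 ratios, 3 were added after the values were seen. COL1A2 over COL3A1 and COL11A1 over COL5A1 compare chains of different collagen types. A further ratio, COL8A2 over COL8A1, was planned and left out of the tests, as COL8A2 was at 0 in a library. With 3 libraries against 3, an exact two-sided permutation test cannot go below p = 0.1, which became 0.133 after adjustment over the 24 tests. The ratio of COL5A2 to COL5A1 was 7.03, 7.04 and 6.59 in Stage 3+KPT libraries, against 2.53, 2.23 and 2.17 in Stage 3+DMSO libraries (exact permutation p = 0.1). It had means of 1.51 ± 0.0559 at Stage 1, 1.85 ± 0.252 at Stage 2 and 2.31 ± 0.193 at Stage 3+DMSO (SD, n = 3), and no stage overlapped another. KPT libraries lay apart from all others in the balance of these type V chains.

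The ratio of COL1A2 to COL3A1 was 0.965, 0.998 and 0.934 in Stage 3+KPT libraries, against 1.37, 1.66 and 1.62 in Stage 3+DMSO libraries. It was 1.71, 1.60 and 1.55 at Stage 2, against 2.26, 2.31 and 2.33 at Stage 1, and these groups did not overlap (exact permutation p = 0.1 for each). COL4A2 over COL4A1 was steadier, with 0.491, 0.491 and 0.484 in Stage 3+KPT libraries, against 0.571, 0.563 and 0.551 in Stage 3+DMSO libraries (exact permutation p = 0.1), and overlapping ranges among the 3 groups without KPT. COL6A3 over COL6A2, a ratio added after the values were seen, averaged 0.361 ± 0.0371 with KPT and 0.232 ± 0.00694 with DMSO (SD, n = 3), without overlap. COL4A5 over COL4A1, also added then, averaged 0.0776 ± 0.00454 with KPT and 0.0551 ± 0.00159 with DMSO, and 0.0602 ± 0.00853 at Stage 2 and 0.0328 ± 0.00376 at Stage 1. COL11A1 over COL5A1, added likewise, averaged 0.371 ± 0.00532 with KPT and 0.380 ± 0.0366 with DMSO, with overlapping ranges (difference -0.03 on the log2 scale, exact permutation p = 0.7).

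**Figure D3:**
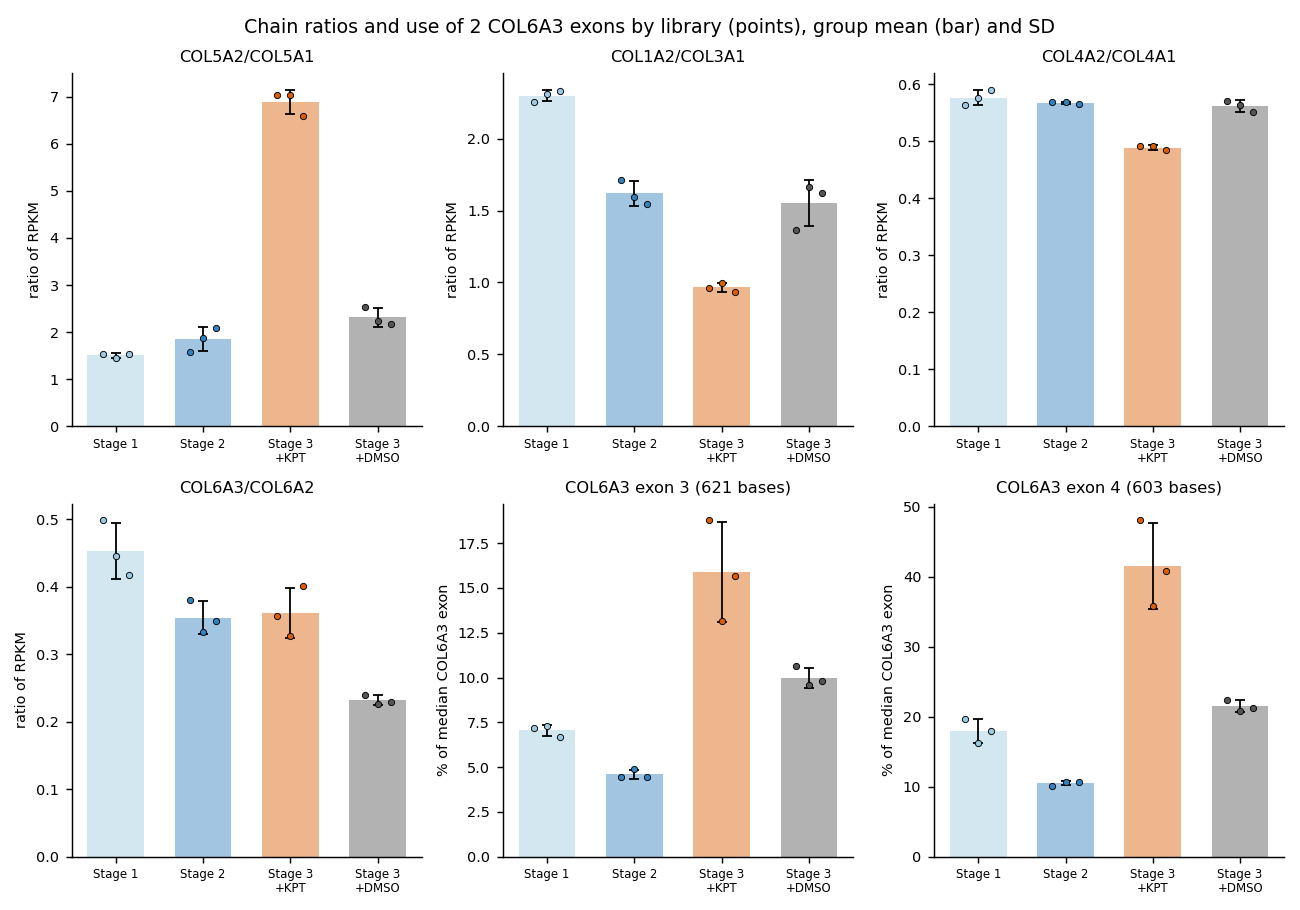
Ratios of the RPKM of pairs of collagen chains, and the level of exon 3 and exon 4 of COL6A3 as a percentage of the median COL6A3 exon. Points are libraries, bars are means of 3 libraries, whiskers are SD and all axes start at 0. The COL5A2/COL5A1 ratio averages 6.89 in Stage 3+KPT libraries and 2.31 in Stage 3+DMSO libraries, and both exons have their lowest share at Stage 2.

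The FACIT collagens moved in different directions. COL12A1, a fibril-surface collagen of tissues under load, measured 855, 748 and 735 RPKM at Stage 1, 812, 672 and 685 RPKM at Stage 2 and 392, 393 and 427 RPKM at Stage 3+DMSO. The last group lay below all libraries of the earlier stages (log2 fold change -0.83, SE 0.10, adjusted p = 4.10e-05 against Stage 2), in 29 of 29 measured exons. With KPT it had 478, 458 and 587 RPKM, above each DMSO library (log2 fold change 0.32, SE 0.10, adjusted p = 0.0149), although the call was lost without the third Stage 3+KPT library (adjusted p = 0.0707). The deposited COL12A1 model spans 3154 bases in 29 exons, so its place in the order of collagens depends on that model.

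COL14A1, a FACIT collagen of fibril surfaces, went the opposite way at both steps. Stage 3+DMSO libraries had 278, 205 and 184 RPKM, against 85.9, 85.7 and 97.7 RPKM at Stage 2 (log2 fold change 1.28, SE 0.12, adjusted p = 6.68e-06), and 51 of 51 exons were higher without overlap. Without the first Stage 3+DMSO library the log2 fold change was 1.11 (adjusted p = 2.27e-06). KPT libraries had 75.0, 70.2 and 71.9 RPKM, below each Stage 1 library, where COL14A1 had 93.5, 81.6 and 79.4 RPKM, and the log2 fold change over DMSO was -1.58 (SE 0.12, adjusted p = 2.23e-07). COL9A2, a cartilage FACIT chain, had 32 reads in Stage 3+KPT libraries and 110 in Stage 3+DMSO libraries, and passed in no comparison.

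The row named COL21A1 is uncertain in identity. It lies 6415 bases from COL4A5 on chromosome X, on the same strand and with no gene of the table between them, whereas RefSeq (Sscrofa11.1) places COL21A1 on another chromosome, between DST and VPS52, and a table of gene IDs gives that name to another, untested gene. Its levels were 45.9, 50.9 and 49.5 RPKM at Stage 2, against 29.9, 21.5 and 26.4 RPKM at Stage 1 (log2 fold change 0.90, SE 0.10, adjusted p = 3.97e-05), near those of COL4A5. Stage 3+KPT libraries had 24.6, 26.7 and 25.6 RPKM, against 25.8, 29.7 and 28.9 RPKM in Stage 3+DMSO libraries, a difference that did not pass (log2 fold change -0.13, SE 0.10, adjusted p = 0.311).

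COL18A1, a basement membrane collagen whose end fragment is endostatin, had 37.1, 52.2 and 47.2 RPKM in Stage 3+KPT libraries, against 82.2, 92.3 and 93.4 RPKM in Stage 3+DMSO libraries (log2 fold change -0.97, SE 0.11, adjusted p = 6.63e-06). It had 71.7, 64.6 and 60.9 RPKM at Stage 2, against 67.9, 64.3 and 69.5 RPKM at Stage 1, and these overlapped. The deposited COL18A1 model spans 1104 bases in 6 exons, so its RPKM holds for that model only. On the log2(RPKM + 1) scale of the fit, COL26A1 had the largest fall of all members with KPT (log2 fold change -2.98, SE 0.13, adjusted p = 1.13e-09). It had 0.933, 1.56 and 1.40 RPKM in Stage 3+KPT libraries (88 reads), against 17.5, 15.5 and 18.2 RPKM in Stage 3+DMSO libraries (1115 reads). That scale understates changes of low genes. COL5A3, COL6A5 and COL8A2 averaged 0.157, 0.434 and 0.164 RPKM with KPT, against 2.86, 7.69 and 2.58 RPKM with DMSO. These were larger relative falls of the mean, though COL6A5 and COL8A2 varied widely between DMSO libraries. In the groups without KPT the COL26A1 means stayed between 14.7 and 17.1 RPKM, and no stage difference passed.

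COL7A1, which forms the anchoring fibrils of epithelia, was the collagen with the largest rise under KPT. It had 4.04, 4.53 and 4.82 RPKM in Stage 3+KPT libraries (2526 reads), against 1.45, 1.47 and 1.44 RPKM in Stage 3+DMSO libraries (808 reads; log2 fold change 1.15, SE 0.11, adjusted p = 1.98e-06). At Stage 2 it had 2.36, 2.70 and 2.41 RPKM, against 1.44, 1.78 and 1.65 RPKM at Stage 1 (log2 fold change 0.42, SE 0.11, adjusted p = 0.0110). It is the only member with an exon that overlaps another gene of the table, 1 of its 118 exons. Epithelial genes EPCAM, KRT8, KRT18 and KRT19 were each under 1 RPKM in all libraries.

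Among the processing genes, the catalytic subunits of prolyl 4-hydroxylase, which stabilise the helix by hydroxylating proline, fell with KPT. P4HA2 had 152, 162 and 145 RPKM in Stage 3+KPT libraries, against 530.2, 473 and 427 RPKM in Stage 3+DMSO libraries (log2 fold change -1.63, SE 0.07, adjusted p = 1.52e-09). P4HA1 had 240.4, 213 and 222 RPKM in Stage 3+KPT libraries, against 411, 362 and 355 RPKM in Stage 3+DMSO libraries (log2 fold change -0.74, SE 0.07, adjusted p = 1.62e-06). For P4HA3 the values were 50.8, 49.0 and 44.6 RPKM in Stage 3+KPT libraries, against 97.6, 89.3 and 90.9 RPKM in Stage 3+DMSO libraries (log2 fold change -0.93, SE 0.06, adjusted p = 7.22e-08). None of the 3 genes overlapped between KPT and DMSO libraries.

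Across the stages without KPT, all prolyl 4-hydroxylase subunits peaked at Stage 2. P4HA1 measured 512, 528 and 557 RPKM at Stage 2, against 475, 432 and 463 RPKM at Stage 1. P4HA2 measured 586, 547 and 544 RPKM at Stage 2, against 421, 400.2 and 409 RPKM at Stage 1. P4HA3 measured 144, 133 and 130.5 RPKM at Stage 2, against 106, 104 and 106 RPKM at Stage 1, and no pair of these ranges overlapped. Their log2 fold changes at Stage 2 over Stage 1 were 0.22, 0.45 and 0.36 (adjusted p = 0.0243, 5.26e-04 and 7.58e-04). At Stage 3+DMSO over Stage 2 they were -0.50, -0.23 and -0.55 (adjusted p = 1.23e-04, 0.0220 and 3.16e-05). The P4HA2 fall in that comparison did not pass without the first Stage 2 library.

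The lysyl hydroxylases, whose hydroxylysines carry sugars and take part in cross-links, were not called lower with KPT. PLOD1 had 277, 322 and 312 RPKM in Stage 3+KPT libraries, against 234, 267 and 251 RPKM in Stage 3+DMSO libraries (log2 fold change 0.28, SE 0.07, adjusted p = 0.00480). PLOD2, which hydroxylates telopeptide lysines, had 318, 257 and 298 RPKM in Stage 3+KPT libraries, against 350.0, 274 and 299 RPKM in Stage 3+DMSO libraries, with overlapping ranges (log2 fold change -0.08, SE 0.11, adjusted p = 0.559). Both genes were lower at Stage 3+DMSO than at Stage 2, with log2 fold changes of -0.64 for PLOD1 and -0.63 for PLOD2 (adjusted p = 2.04e-05 and 6.46e-04). PLOD1 had 420.4, 377 and 379 RPKM at Stage 2, against 298, 313 and 300.4 RPKM at Stage 1 (log2 fold change 0.37, SE 0.07, adjusted p = 0.00149), and PLOD2 had 408, 499 and 523 RPKM at Stage 2, against 439.8, 407 and 452 RPKM at Stage 1, where the ranges overlapped.

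SERPINH1, the collagen chaperone also called HSP47, was the most abundant processing gene in every group. It measured 846, 962 and 905 RPKM in Stage 3+KPT libraries, against 2744, 2537 and 2315 RPKM in Stage 3+DMSO libraries (log2 fold change -1.48, SE 0.07, adjusted p = 1.85e-09). It measured 2479, 2427 and 2533 RPKM at Stage 2, against 1684, 1769 and 1692 RPKM at Stage 1 (log2 fold change 0.53, SE 0.07, adjusted p = 8.84e-05), and Stage 3+DMSO did not differ from Stage 2 beyond the threshold (0.03, adjusted p = 0.779). The deposited SERPINH1 model spans only 635 bases in 3 exons, so its place in the order depends on that model.

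PCOLCE, which speeds removal of the carboxyl propeptide by BMP1, had 132, 154 and 165 RPKM in Stage 3+KPT libraries, against 512, 385 and 397 RPKM in Stage 3+DMSO libraries (log2 fold change -1.51, SE 0.11, adjusted p = 8.67e-08). It had 514, 474 and 446 RPKM at Stage 2, against 282, 289 and 284 RPKM at Stage 1 (log2 fold change 0.74, SE 0.11, adjusted p = 1.75e-04). At Stage 3+DMSO over Stage 2 it did not pass (-0.16, adjusted p = 0.249) but was lower without the first Stage 3+DMSO library (-0.29, adjusted p = 0.0189). Its relative PCOLCE2 had 60.8, 55.0 and 57.2 RPKM in Stage 3+KPT libraries, against 120.5, 122 and 116 RPKM in Stage 3+DMSO libraries (log2 fold change -1.04, SE 0.05, adjusted p = 4.65e-09), and 98.5, 102 and 103 RPKM at Stage 2, against 95.6, 95.1 and 95.9 RPKM at Stage 1. BMP1, the propeptide-cleaving enzyme itself, had the smallest fall of the 7 processing genes called lower. It had 93.8, 109 and 107 RPKM in Stage 3+KPT libraries, against 129, 131 and 123 RPKM in Stage 3+DMSO libraries (log2 fold change -0.30, SE 0.06, adjusted p = 8.18e-04). BMP1 had 129, 132 and 129 RPKM at Stage 2, against 115, 114 and 113 RPKM at Stage 1 (log2 fold change 0.18, adjusted p = 0.0292).

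**Figure D4:**
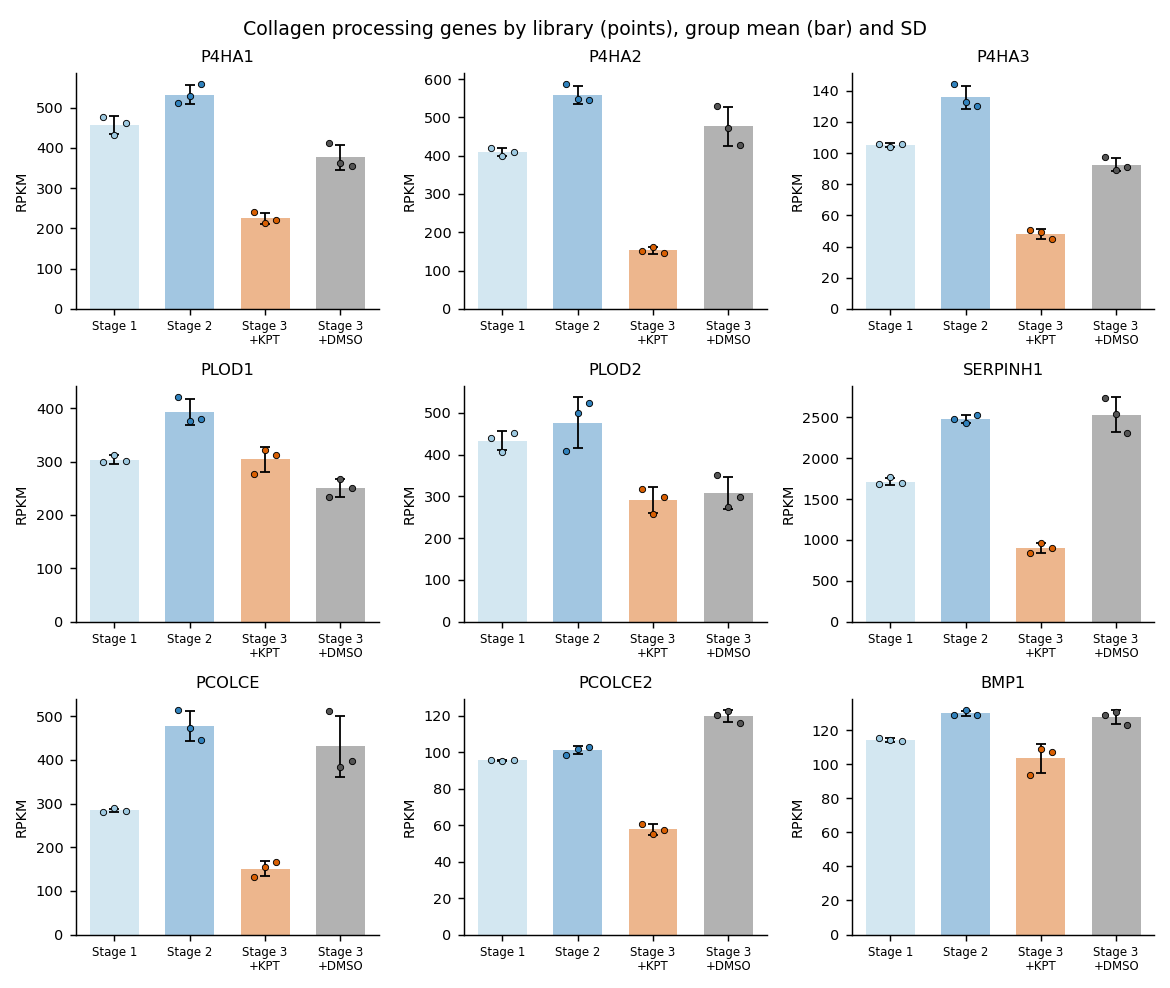
Levels of the 9 processing genes in RPKM on linear axes that start at 0; points are libraries, bars are means of 3 libraries and whiskers are SD. SERPINH1, PCOLCE, PCOLCE2 and the 3 prolyl 4-hydroxylase genes lie lower in each Stage 3+KPT library than in any library of the other groups, while PLOD1 lies higher than in the Stage 3+DMSO libraries and PLOD2 overlaps them.

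Genes that act on collagen without being members were listed by role, 40 in all, of which 34 were tested. In the list of folding and secretion genes, 9 of 14 were lower and 1 higher with KPT (median log2 fold change -0.66), where 29.5% and 30.5% of all tested genes were. CREB3L1, a transcription factor that drives collagen secretion in bone in mice, had 56.0, 57.1 and 59.6 RPKM in Stage 3+KPT libraries, against 236, 209 and 226 RPKM in Stage 3+DMSO libraries (log2 fold change -1.94, SE 0.06, adjusted p = 7.42e-11). SEC24D, a coat protein needed to export procollagen, averaged 85.8 ± 0.824 RPKM with KPT and 209 ± 13.4 RPKM with DMSO (SD, n = 3; log2 fold change -1.28, adjusted p = 1.54e-09). P3H2, a prolyl 3-hydroxylase that acts on type IV collagen, was the gene that rose (log2 fold change 0.73, adjusted p = 0.0125). At Stage 2 over Stage 1, 7 of these 14 genes were higher, where 16.3% of all tested genes were, led by SPARC, a collagen-binding matricellular protein (log2 fold change 1.27), and FKBP14 (0.51), a chaperone of the endoplasmic reticulum. At Stage 3+DMSO over Stage 2, 7 were lower, where 11.1% of all tested genes were, led by P3H2 (-0.97) and SEC23A (-0.77). CREB3L1 (0.47) and COLGALT1 (0.24), a collagen galactosyltransferase, were higher, where 33% of all tested genes were, and COLGALT1 did not pass after median-ratio rescaling (0.07, adjusted p = 0.449).

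In the cross-linking list, LOX, the lysyl oxidase that starts collagen cross-links, had 110.2, 108 and 105 RPKM in Stage 3+KPT libraries, against 284, 252 and 266 RPKM in Stage 3+DMSO libraries (log2 fold change -1.30, SE 0.05, adjusted p = 5.84e-10). LOXL4 also fell with KPT (-0.80), and had fallen at Stage 2 over Stage 1 (-1.06) and at Stage 3+DMSO over Stage 2 (-0.98). LOXL1 rose at Stage 2 (1.12), and LOXL1 and LOXL3 did not pass with KPT. In the list of propeptide removal, ADAMTS2, which cleaves the amino propeptide, rose at Stage 2 over Stage 1 (0.81, adjusted p = 3.66e-06) and fell at Stage 3+DMSO over Stage 2 (-0.50, adjusted p = 8.12e-05). TLL1, a BMP1 relative at low level, fell with KPT (-0.71, adjusted p = 0.00130), while ADAMTS2 did not pass (0.13, adjusted p = 0.107). TLL2, a further BMP1 relative, reached 1 RPKM in the Stage 3+DMSO libraries alone, which is how it entered the fit, so no test of it is given: it had 0.452, 0.302 and 0.105 RPKM with KPT, against 1.48, 1.02 and 1.44 RPKM with DMSO.

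Of the collagen-cleaving proteases, MMP1, CTSK and MMP2 were higher with KPT, 3 of the 4 that did not enter the fit through a single group, where 30.5% of all tested genes were higher. MMP1, interstitial collagenase, had 601, 575 and 572 RPKM in Stage 3+KPT libraries, against 6.46, 8.03 and 10.3 RPKM in Stage 3+DMSO libraries (log2 fold change 6.00, SE 0.13, adjusted p = 5.70e-12). It had 11.1, 8.50 and 8.95 RPKM at Stage 2, against 73.7, 76.1 and 83.0 RPKM at Stage 1 (log2 fold change -2.91, SE 0.13, adjusted p = 9.52e-08). CTSK, cathepsin K, which cuts within the triple helix, had 11217, 11769 and 10073 RPKM in Stage 3+KPT libraries, against 1949, 2442 and 2811 RPKM in Stage 3+DMSO libraries (log2 fold change 2.21, SE 0.11, adjusted p = 2.77e-09). MMP8, the neutrophil collagenase, had 2.74, 2.92 and 3.02 RPKM with KPT and was listed at 0 reads in each Stage 3+DMSO library. It was at most 0.216 RPKM in all libraries without KPT, so it entered the fit through the KPT libraries alone and no test of it is given. MMP2 rose (0.40, adjusted p = 2.69e-04) and MMP14, the membrane collagenase, did not pass (0.01, adjusted p = 0.946) with KPT, while MMP14 rose at Stage 3+DMSO over Stage 2 (1.04, adjusted p = 1.90e-06). At Stage 2 over Stage 1, MMP2 and MMP14 rose (0.80 and 0.32). Against Stage 1, Stage 3+DMSO libraries were lower in MMP1 (log2 fold change -3.10) and higher in MMP2 (1.52).

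Among collagen receptors, 2 of the 7 that did not enter the fit through a single group were higher and 3 lower with KPT, near the 30.5% and 29.5% of all tested genes. ITGA11, an integrin subunit that binds type I collagen, fell (-1.32, adjusted p = 2.92e-08), with means of 45.1 ± 2.70 RPKM in Stage 3+KPT libraries and 114 ± 13.9 RPKM in Stage 3+DMSO libraries (SD, n = 3). ITGA2, another collagen-binding subunit, reached 1 RPKM in the KPT libraries alone, so no test of it is given: it had 2.70, 2.31 and 2.91 RPKM with KPT, against 0.271, 0.266 and 0.358 RPKM with DMSO. DDR2, a collagen-binding tyrosine kinase, rose (0.36), and ITGA10 fell (-0.40) although its ranges overlapped. At Stage 2 over Stage 1, DDR1 and ITGA11 rose most (0.98 and 0.96), and ITGB1, the shared beta subunit, fell (-0.34). At Stage 3+DMSO over Stage 2, DDR1, the relative of DDR2, fell (-1.03) and ITGA10 and DDR2 rose (0.64 and 0.47).

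**Figure D5:**
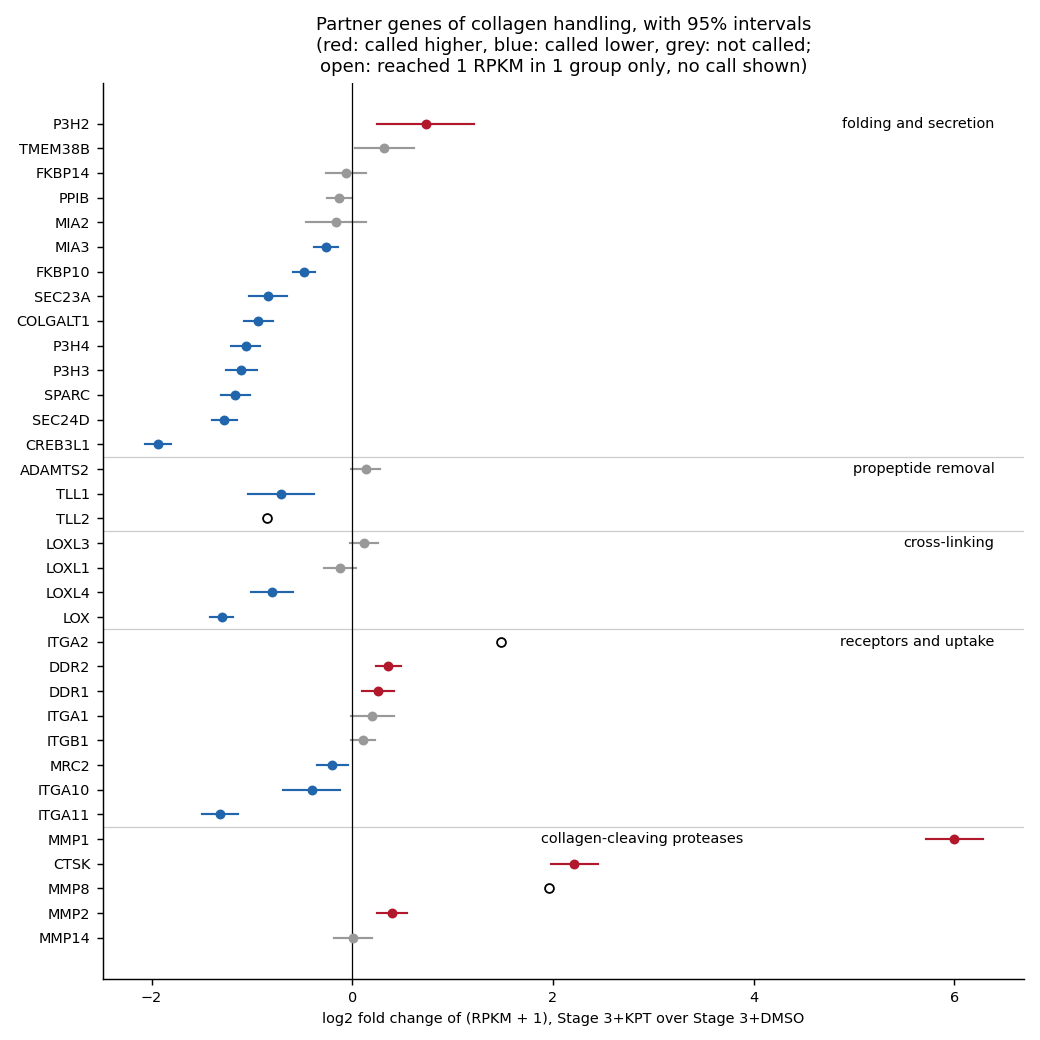
Log2 fold changes of RPKM + 1 in Stage 3+KPT over Stage 3+DMSO for the 34 tested partner genes by list; points are limma estimates, lines are 95% intervals, red marks genes called higher, blue lower and grey not called. Open points mark MMP8, ITGA2 and TLL2, which reached 1 RPKM in 1 group only and have no call or interval shown; MMP1 stands farthest to the right.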

How the data were processed

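Libraries were made with a stranded mRNA kit from 500 ng of total RNA, per the labels' protocols, and the submitters' processing notes name TopHat2 2.1.0. Counter, strand setting and genome build: not given in the sources used here. What the authors deposited are RPKM values of genes and exons. Multiplying them by exon length and a whole-number library total (13188023 to 24724019) gave whole reads for 100% of values within 0.0001. These reads give depth, shares of reads, the exon filter and an alternative test; they summed to 1.751 to 1.813 times the library total, for a reason not given.

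Genes with RPKM of at least 1 in at least 3 of 12 libraries were tested in limma 3.58.1 (R 4.3.3) on log2(RPKM + 1), which understates changes of low genes, in 1 fit with a coefficient per group and an expression trend. A gene was called at a Benjamini-Hochberg adjusted p below 0.05 over all 13046 tested, and every adjusted p in the text is from that fit unless another setting is named. The script was tested on simulated data.

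The members, classes and partner lists were chosen with earlier results of these data known. Named are all members, and called genes from each partner list. The plan was up to 2 in each direction per comparison, the largest first. Some of these are left out, such as CTSK and LOX in stage comparisons, and for some genes values in other comparisons are given. MMP8 was added after its values were seen. Exons were compared where they had a mean of at least 20 reads. Alternatives were 25, among them limma-voom, other pseudocounts (0.1 and 0.5), no filter, a minimum RPKM of 5, median-ratio rescaling, quantile normalization, library weights, leaving out each library, and a replicate block. No sequences are shown, as no table used here held them.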

Additional observations from a re-analysis of the deposited data

How the results depend on the processing

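Of 3080 values of single genes under up to 25 alternatives, 2924 kept their side of the threshold, 107 lost the call and 49 gained it. Where either fit called the gene, 0 reversed direction. Differences called in neither fit were not checked for direction. The number of members lower at Stage 2 than at Stage 1, which was 0, became 1 with no trend, with library quality weights, with limma-voom on the recovered reads, without Stage 2 replicate 1 and without replicate 1 of every group; leaving out single libraries gave 0 to 1. The number higher at Stage 3+DMSO than at Stage 2 was 7 and became 2 under median-ratio rescaling. The counts of members with KPT, 3 higher and 23 lower, ranged from 2 to 3 and from 22 to 24 when single libraries were left out. Quantile normalization ended the KPT calls of COL3A1 and COL5A2, as given above. Leaving out replicate 1 of every group and removing the collagens from the library totals were chosen after seeing the data. Pairing by replicate number was not detected, as deviations of same-numbered libraries correlated between -0.131 and 0.0748 over 18 pairs, with 0 above 0.1. These correlations cannot decide whether the samples were paired by design, as the labels do not give the origin of the replicates. With a replicate block the calls over all genes were 5133, 5641, 6078 and 7725, against 5308, 5755, 6226 and 7831, for Stage 2 over Stage 1, Stage 3+DMSO over Stage 2, Stage 3+DMSO over Stage 1 and Stage 3+KPT over Stage 3+DMSO. The cause of these shifts was not tested. Depth limits COL5A3, COL8A2 and COL9A2, which had 49, 22 and 32 reads over the Stage 3+KPT libraries.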

Other observations

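Collagens that the gene table left without a name, but that a table of gene IDs or an Entrez gene number names, were measured beside the members. COL15A1, a basement membrane collagen of the multiplexin class, had 581, 646 and 584 RPKM in Stage 3+KPT libraries, against 1403, 1381 and 1322 RPKM in Stage 3+DMSO libraries (limma log2 fold change -1.18, SE 0.06, adjusted p = 2.40e-09). It had 1244, 1225 and 1209 RPKM at Stage 2, against 1385, 1300.4 and 1299 RPKM at Stage 1 (not called, adjusted p = 0.125). The deposited COL15A1 model spans 914 bases, so its level holds for that model only.

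The name COL16A1, of a FACIT collagen, was given to a pair of gene IDs that moved alike. They lie on opposite strands of chromosome 6, and the ID with the shorter model was named by its Entrez gene number. Whether both are parts of COL16A1 is uncertain. The ID with the longer model averaged 212 ± 14.1 RPKM in Stage 3+KPT libraries and 551 ± 12.6 RPKM in Stage 3+DMSO libraries (SD, n = 3), a log2 fold change of -1.38 by limma. The other averaged 204 ± 11.1 RPKM with KPT and 508 ± 24.3 RPKM with DMSO, a log2 fold change of -1.31. Both COL16A1 IDs rose at Stage 2 over Stage 1 with a log2 fold change of 0.66. COL27A1, a fibrillar collagen, averaged 5.22 ± 0.494 RPKM in Stage 3+KPT libraries and 8.59 ± 1.23 RPKM in Stage 3+DMSO libraries (log2 fold change -0.62), and its gene overlaps other genes on both strands. COL17A1, an epithelial transmembrane collagen too low to be tested, had 136 reads in Stage 3+KPT libraries and 30 in Stage 3+DMSO libraries.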
